A study of Homo sapiens with 6 samples.

Results

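Newly copied DNA has to be wrapped in new histones, and the 10 genes described here encode proteins that carry those histones to DNA or that make and shape histone messenger RNA. They are CHAF1A, CHAF1B and RBBP4, the subunits of chromatin assembly factor 1 (CAF-1), the chaperones ASF1A, ASF1B and NASP, the histone acetyltransferase HAT1, and the histone mRNA factors SLBP, CASP8AP2 and NPAT. The genes were chosen by name for these roles, and only genes listed at all 3 times were kept. The 10 are thus by selection among the 11886 genes listed at all 3 times. The series measured RNA of U2OS, an established human osteosarcoma line, after knockdown of E2F7 by siRNA (siE2F7) or with a non-targeting control (siNT). All cells of both arms had been held with 4 mM hydroxyurea for 24 h, then washed, and were taken at 0, 3 or 12 h, with 1 library per arm and time and 6 in all. Per the series' design text, cells were then at the transition from G1 to S (0 h), in S phase (3 h) and at the boundary of G2 and M (12 h). E2F7 is an atypical member of the E2F family and acts as a repressor at promoters that the activating E2Fs turn on; the comparison of arms asks which transcripts its loss changes.

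In S phase, HAT1 acetylates new histone H4 in the cytoplasm together with an RBBP4-type protein, NASP holds a store of soluble H3 and H4, and ASF1 passes H3-H4 dimers to CAF-1, which is brought to the fork by the sliding clamp PCNA. Most histone messages of S phase end in a stem-loop instead of a poly(A) tail. NPAT, a substrate of cyclin E and CDK2, switches on the histone genes, CASP8AP2 (also called FLASH) takes part in cutting the 3′ end, and SLBP binds the stem-loop and stays with the message until it is translated. Many genes of this machinery are textbook targets of E2F factors.

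E2F7 itself stood at 20.3, 29.4 and 16.6 FPKM in siNT and at 9.48, 10.6 and 5.52 FPKM in siE2F7 at 0, 3 and 12 h, lower in each siE2F7 library. FPKM divides the fragments of a gene by its transcript length and the library's mapped total, so levels of different genes can be compared, but the tables hold no counts and their depth is unknown. FPKM summed to between 351305 and 375954 per library. Of 6 osteoblast markers 5 were listed at all times, with summed levels from 683.0 to 934.9 FPKM. Of 9 epithelial, blood and endothelial markers 2 were listed at all times, EPCAM and LAPTM5, with summed levels from 3.7 to 5.6 FPKM.

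Of the 10 genes 8 rose with E2F7 knockdown, 0 fell and 2 did not pass (limma, paired by time, on log2(FPKM + 0.1), Benjamini-Hochberg adjustment over all genes at 0.05). Of all genes tested, 13.9% were called in either direction, 6.76% higher and 7.13% lower. At an unadjusted p under 0.05 the members' counts were again 8 and 0, where 13.5% of all genes were higher and 16.7% lower. The median log2 change of the 10 was 0.52, against -0.03 over all genes. The 8 genes that rose were higher in siE2F7 at 3 of 3 times, which is not separate evidence, since the fit called them from these same ratios. They were SLBP, RBBP4, CHAF1B, CHAF1A, CASP8AP2, ASF1B, HAT1 and NASP in the order of their change, from 1.72-fold to 1.25-fold. ASF1A and NPAT were the 2 that did not pass. Without the libraries of 3 h, 4 of the 10 were called higher, against 2.79% of all genes. With no block for time 0 were called (limma), and 6 were higher at an unadjusted p under 0.05, against 4.64% of all genes. In RNA from a bulk culture, more cells in a phase and more transcript per cell cannot be told apart. Nothing in the labels says that the times are separate experiments, so the p-values measure the spread of these libraries.

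**Figure D1:**
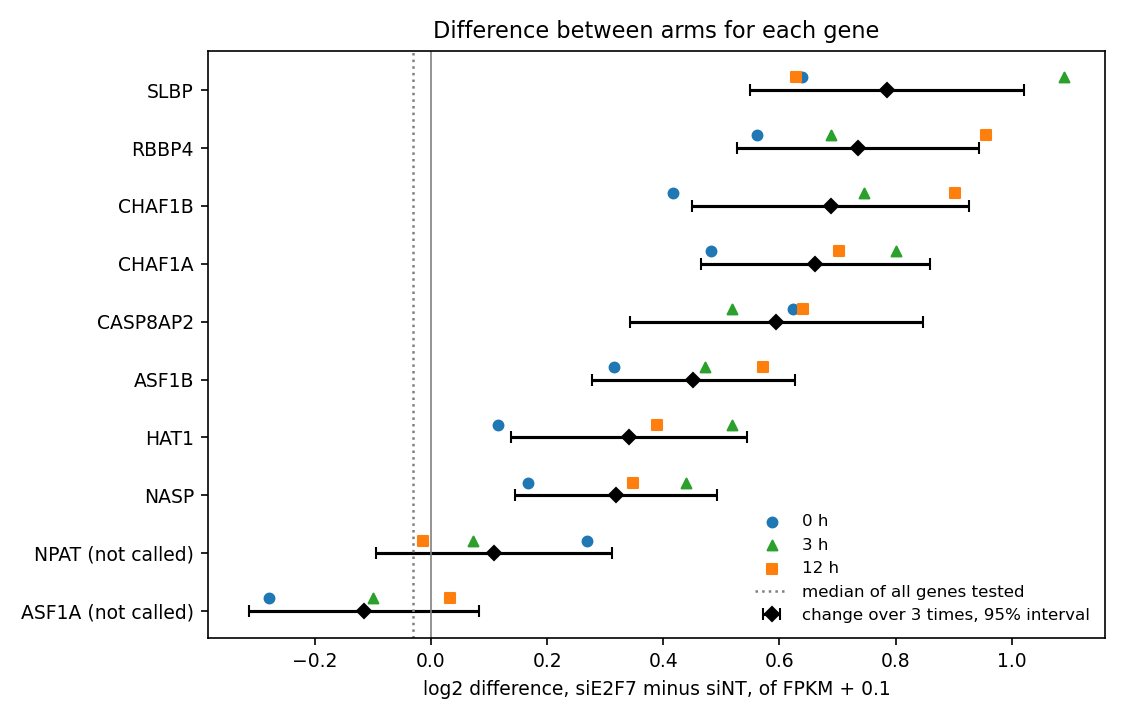
Log2 difference between siE2F7 and siNT (x axis, on FPKM + 0.1) for each of the 10 genes (rows). Diamonds are the change over 3 times with its 95% interval from limma, and coloured symbols the single ratios at 0, 3 and 12 h, each of 1 library against 1. The intervals of 8 genes lie above 0, and those of NPAT and ASF1A include it.

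CAF-1 sets H3-H4 down behind the fork, and its 3 subunits rose by similar amounts. CHAF1A, the large subunit (hg19, chromosome 19, 4402660 to 4443394), stood at 15.3, 15.3 and 11.3 FPKM in siNT at 0, 3 and 12 h and at 21.5, 26.8 and 18.5 FPKM in siE2F7. At each time the siE2F7 library was above the siNT library. Over the times CHAF1A rose by 0.66 ± 0.08 on the log2 scale (SE; limma, adjusted p = 0.0039). CHAF1B, the middle subunit (chromosome 21, 37757689 to 37789125), stood at 17.5, 11.9 and 8.18 FPKM in siNT and at 23.4, 20.1 and 15.4 FPKM in siE2F7. Each siE2F7 value was above the siNT value of its time, but the 12 h siE2F7 library lay below the 0 h siNT library. CHAF1B rose by 0.69 ± 0.10 on the log2 scale (SE; limma, adjusted p = 0.0066), and the single ratios were 0.42, 0.75 and 0.90 on the log2 scale.

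RBBP4, the small subunit (locus of its entry on chromosome 1, 33116749 to 33168361), is a histone-binding protein found also in the NuRD, Sin3, Polycomb and MuvB complexes. Its level was 19.9, 19.1 and 14.4 FPKM in siNT and 29.4, 30.8 and 28.1 FPKM in siE2F7. The 3 siE2F7 libraries lay close together, each above the siNT library of its time. The log2 change was 0.74 ± 0.09 (SE; limma, adjusted p = 0.0036). The RBBP4 locus overlaps that of SYNC, whose level moved from 14.6, 13.4 and 10.6 to 23.3, 19.7 and 19.4 FPKM (log2 change 0.70 ± 0.08). Since no source used here says that strand was counted, reads from where the loci overlap may have been shared between these 2 genes.

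Promoters of 4 members held a short E2F motif, and the stretches around it are shown because the E2F family is known to bind such letters. They come from RefSeq windows (GRCh38.p14) of 300 bases each, from 250 before to 50 after a start site, written 5′ to 3′ on the gene's strand. Capitals mark TTCCCGC or TTGGCGC on either strand, and for CASP8AP2 also the octamer TTTGGCGC, which contains the second of these cores. The stretches were picked after the motifs had been found.

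CASP8AP2 (chr6:89829710-89829799, plus strand): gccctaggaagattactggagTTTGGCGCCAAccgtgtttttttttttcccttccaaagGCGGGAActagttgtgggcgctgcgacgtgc

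CHAF1A (chr19:4402580-4402639, plus strand): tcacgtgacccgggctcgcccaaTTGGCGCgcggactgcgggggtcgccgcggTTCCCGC

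CHAF1B (chr21:36385368-36385397, plus strand): gcgggggcggggcctgcggcgcGCGGGAAg

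RBBP4 (chr1:32651138-32651207, plus strand): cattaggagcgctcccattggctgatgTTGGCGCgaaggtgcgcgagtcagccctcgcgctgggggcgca

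One of these cores was in 9.23% of all 35116 windows and in a window of 4 of the 10 genes. A gene can have windows at different start sites, as RBBP4 does. The shares of windows given here and the counts of genes are thus unlike measures. One of the octamers TTTCCCGC, TTTGGCGC, TTTCGCGC and TTTGCCGC was in 3.31% of windows and, among the 10, in that of CASP8AP2 alone. The CHR letters TTTGAA or TTCGAA, which the MuvB complex is known to bind, were in 16.35% of windows and in that of ASF1B among the 10. CCAAT, on either strand, was in 34.61% of windows and in those of 8 of the 10 genes. In CHAF1A it overlaps the core at -37. A match is only a match of letters. CASP8AP2, CHAF1A, CHAF1B and RBBP4 held a core and were called higher. ASF1B, HAT1, NASP and SLBP held no core and were called higher too. ASF1A and NPAT, which did not pass, held CCAAT alone. SLBP, which had the largest change of the 10, held none of the motifs in its window. Whether these motifs had a part in the changes was not tested.

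ASF1A and ASF1B are paralogs that hand H3-H4 to the next chaperone, and ASF1B is known as the form of dividing cells. ASF1B (chromosome 19, 14230321 to 14247440) stood at 35.3, 22.7 and 22.1 FPKM in siNT and at 43.9, 31.5 and 32.8 FPKM in siE2F7. It was higher in siE2F7 at each time, and highest at 0 h in both arms. The log2 change was 0.45 ± 0.07 (SE; limma, adjusted p = 0.0094), a call that ended without the libraries of 3 h (adjusted p = 0.051). ASF1A (locus of its entry on chromosome 6, 119134612 to 119256327) stood at 14.1, 15.2 and 18.9 FPKM in siNT and at 11.6, 14.2 and 19.3 FPKM in siE2F7. The 2 arms were close at 3 and 12 h, and both were highest at 12 h. The log2 change was -0.12, with a 95% interval from -0.31 to 0.08 and an adjusted p of 0.4. An increase of the size found for ASF1B lies outside that interval. The locus given for ASF1A also holds MCM9, at 2.17 to 4.82 FPKM, so reads may have been shared between them.

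The ratio of ASF1B to ASF1A was 2.51, 1.49 and 1.17 in siNT and 3.79, 2.21 and 1.70 in siE2F7 at 0, 3 and 12 h. It was higher with the knockdown at 3 of 3 times and lower at the later times in both arms. The log2 ratio between arms of ASF1B exceeded that of ASF1A by 0.57 ± 0.03 (SD over 3 times; exact sign-flip test, two-sided, p = 0.25, the smallest that 3 times allow). For the pair CHAF1B and CHAF1A this difference was 0.03 ± 0.15 (SD over 3 times; exact sign-flip test, p = 1.0), and their ratio ran from 0.721 to 1.14 over the 6 libraries. Of these pairs and the one of CASP8AP2 and NPAT, 3 in all, adjustment leaves no p under 0.25.

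**Figure D2:**
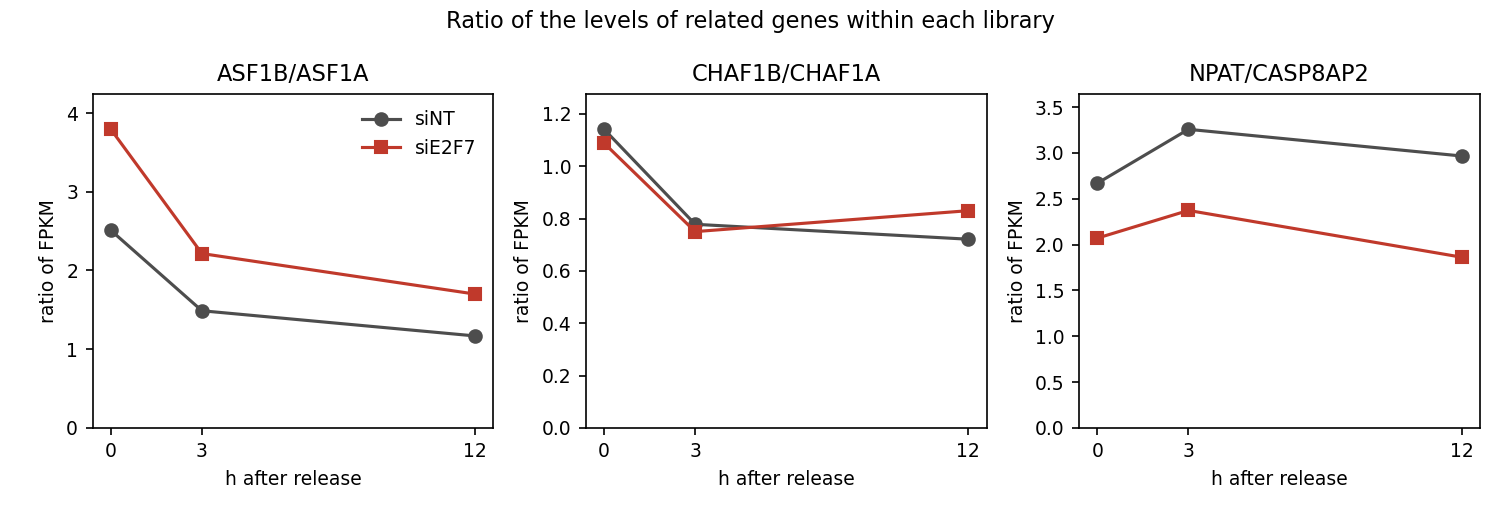
Ratio of FPKM of 2 related genes within each library (y axes, from 0) against hours after release (x axes), with 1 library per point. ASF1B over ASF1A is higher in siE2F7 at each time, NPAT over CASP8AP2 is lower, and CHAF1B over CHAF1A lies close in both arms.

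NASP and HAT1 were the most abundant of the 10 and had the smallest changes that passed. NASP, the H3-H4 store (chromosome 1, 46049660 to 46084578), stood at 94.2, 114.6 and 102.0 FPKM in siNT and at 105.8, 155.4 and 129.9 FPKM in siE2F7. In each library it was above at least 94.7% of the genes tested. The arms were nearest at 0 h, where the log2 ratio was 0.17, and widest at 3 h, where it was 0.44. Its rise over the times was 0.32 ± 0.07 on the log2 scale (SE; limma, adjusted p = 0.032). HAT1 (chromosome 2, 172778935 to 172848600) stood at 86.1, 68.8 and 63.0 FPKM in siNT and at 93.4, 98.6 and 82.5 FPKM in siE2F7. Here too the ratio was smallest at 0 h (0.12) and largest at 3 h (0.52). HAT1 rose by 0.34 ± 0.09 on the log2 scale (SE; limma, adjusted p = 0.041). Both calls ended without the libraries of 3 h (adjusted p = 0.1 and 0.15) or 12 h (adjusted p = 0.11 for each), and without the variance trend (adjusted p = 0.093 and 0.11).

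SLBP, the stem-loop binding protein (chromosome 4, 1694527 to 1714030), had the largest change of the 10. It stood at 32.7, 32.7 and 21.03 FPKM in siNT and at 50.9, 69.8 and 32.6 FPKM in siE2F7. SLBP was higher in siE2F7 than in siNT at each time. The siE2F7 library of 12 h lay at the siNT level of the earlier times. The log2 ratios were 0.64, 1.09 and 0.63, and the log2 change was 0.79 ± 0.10 (SE; limma, adjusted p = 0.004). Between 3 and 12 h the level differed by -0.64 in siNT and -1.10 in siE2F7 on the log2 scale, values of 1 library against 1 with no test.

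The stem-loops that SLBP is known to bind are shown as they stand in GENCODE v29 transcripts (GRCh38) of the histone genes in these tables. The search took 6 bases, a loop of 4 (TTT and any base) and the 6 bases that pair with the first, anywhere in a transcript. Such a hairpin was found in 12 of 17 histone genes tested. The TTT of each loop was thus set by the search, and hairpins with another loop or an imperfect stem were not counted. A transcript model that stops before the hairpin would not show it. Capitals mark the loop.

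HIST1H2AC, HIST1H2BE, HIST1H2BL, HIST1H2BN, HIST2H2AA3, HIST2H2AA4 and HIST2H2BE: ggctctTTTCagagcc

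HIST1H2BC and HIST1H2BD: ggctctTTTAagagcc

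HIST1H4H: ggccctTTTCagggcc

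HIST2H4A and HIST2H4B: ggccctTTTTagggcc

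Over these 17 genes 0 rose and 4 fell in the test in which SLBP rose, with a median log2 change of -0.73 (at an unadjusted p under 0.05 they were 0 and 9). Of all genes 7.13% were called lower, and 16.7% were lower at an unadjusted p under 0.05. Those that fell were HIST1H2BK (-1.16 ± 0.23), HIST1H2BC (-1.01 ± 0.17), HIST1H2BD (-0.89 ± 0.23) and HIST1H2BE (-0.73 ± 0.18), the last 3 of which hold a printed hairpin and are named after their values were seen. The median log2 ratio of the list was -0.10, -0.65 and -1.23 at 0, 3 and 12 h. Without the libraries of 12 h the changes were smaller, at -0.75 for HIST1H2BK, -0.76 for HIST1H2BC, -0.53 for HIST1H2BD and -0.48 for HIST1H2BE, and the last 2 were not called (adjusted p = 0.07 and 0.1). Without those of 3 h HIST1H2BK, HIST1H2BD and HIST1H2BE stood at -1.24, -0.90 and -0.72 and were not called (adjusted p = 0.055, 0.12 and 0.12), nor were they without the variance trend. HIST2H2AA3 and HIST2H2AA4 had identical values in each library, as did HIST2H4A and HIST2H4B, so reads of these near-identical copies cannot be told apart. Each copy is counted in the 17, and HIST2H4A and HIST2H4B are both counted in the 9. Whether RNA with a poly(A) tail was selected is not given in the sources used here, so these levels need not stand for histone messages as a whole.

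CASP8AP2 and NPAT work in the same nuclear body at the histone genes, and the first rose while the second did not pass. CASP8AP2 (chromosome 6, 90539619 to 90584155) was the lowest of the 10, at 4.17, 3.82 and 2.92 FPKM in siNT and 6.48, 5.52 and 4.61 FPKM in siE2F7. Its siE2F7 level was above the siNT level at each time. The log2 change was 0.59 ± 0.11 (SE; limma, adjusted p = 0.014), and it was not called without the libraries of 0 h (adjusted p = 0.061) or of 3 h (adjusted p = 0.053). NPAT (chromosome 11, 108028119 to 108093365) stood at 11.1, 12.5 and 8.67 FPKM in siNT and at 13.4, 13.1 and 8.59 FPKM in siE2F7. The arms were apart at 0 h, where the log2 ratio was 0.27, and close at 3 and 12 h (0.07 and -0.01, the latter 0.04 with median-ratio scaling). The log2 change was 0.11, with a 95% interval from -0.09 to 0.31 and an adjusted p of 0.45. The ratio of NPAT to CASP8AP2 was 2.67, 3.26 and 2.97 in siNT and 2.07, 2.37 and 1.86 in siE2F7. The log2 ratio between arms of CASP8AP2 exceeded that of NPAT by 0.49 ± 0.15 (SD over 3 times; exact sign-flip test, p = 0.25).

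**Figure D3:**
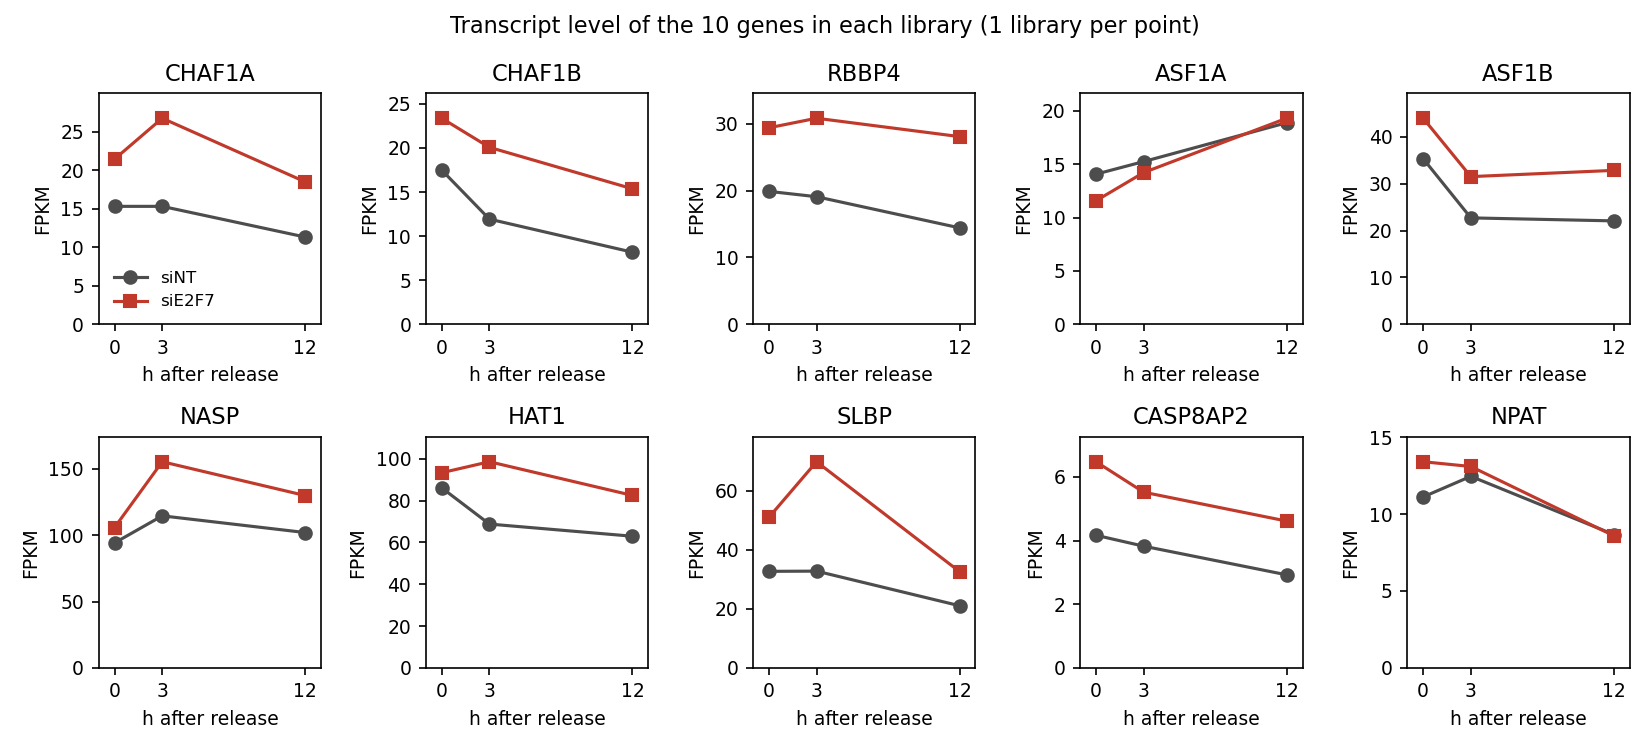
Level of each of the 10 genes in FPKM (y axes, from 0) against hours after release (x axes), grey circles for siNT and red squares for siE2F7, with 1 library per point. For 8 genes the red line lies above the grey line at each time, and for ASF1A and NPAT the lines meet or cross.

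At single times the comparison is 1 library against 1, with no replicate and no test. At least 1.5-fold higher levels were found at 0 h for 2 of the 10 genes, against 2.7% of all genes. At 3 h they were 4, against 3.9% of all genes, and at 12 h they were 5, against 5.07%. At 0 h these were SLBP and CASP8AP2, at 3 h SLBP and the CAF-1 subunits, and at 12 h CASP8AP2 joined these. The median log2 ratio of the 10 was 0.36, 0.52 and 0.60 at 0, 3 and 12 h, against -0.04, 0.00 and -0.04 over all genes. Each time has its own control, and no source used here says whether values of the 3 times share a scaling.

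Across time within an arm the 10 genes did not run in parallel. In siNT the log2 difference between 12 and 0 h was -1.09 for CHAF1B, -0.68 for ASF1B and -0.63 for SLBP, and it was positive for ASF1A (0.42) and NASP (0.12). In siE2F7 it was -0.64 for SLBP and for NPAT, -0.60 for CHAF1B and -0.07 for RBBP4, and again positive for ASF1A (0.73) and NASP (0.30). The median over all genes was -0.03 in siNT and -0.05 in siE2F7.

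Of 12 genes listed as markers of S phase outside the 10, 11 rose and 0 fell, at an unadjusted p under 0.05 too, with a median log2 change of 0.80. Of all genes 6.76% were called higher and 7.13% lower. The summed level of these markers at 0, 3 and 12 h was 1264.9, 1067.1 and 788.8 FPKM in siNT. In siE2F7 it was 1928.9, 2099.5 and 1777.1 FPKM. In siNT the sum was thus highest at 0 h, placed at the transition from G1 to S, and lower at 3 h, placed in S phase. No source used here gives a shared scaling of the 3 times, so this sum cannot check the phases of the design text. Of 12 markers of G2 and M, 1 rose, TOP2A, and 0 fell (4 and 1 at an unadjusted p under 0.05), and TOP2A was not called without the libraries of 0 h (adjusted p = 0.052) or 12 h (adjusted p = 0.094). Their summed level was 652.9, 701.0 and 1329.1 FPKM in siNT and 644.1, 766.1 and 1675.4 FPKM in siE2F7 at 0, 3 and 12 h. The call of TYMS, 1 of the S phase markers, ended without the libraries of 3 h (adjusted p = 0.066) and without the variance trend (adjusted p = 0.075). The part that the share of cells in each phase had in the changes of the 10 genes was not tested.

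Other genes of the same pathways were taken from lists by role. Beside the count of each list stand the shares of all genes, 6.76% called higher and 7.13% lower. At an unadjusted p under 0.05 these shares were 13.5% and 16.7%. Among other H3-H4 chaperones and their helpers, 5 of 14 measured rose and 0 fell (7 and 0 at an unadjusted p under 0.05), with a median log2 change of 0.18. They were MCM2, a helicase subunit that also binds H3-H4 (1.27 ± 0.09, SE), MMS22L (0.60 ± 0.09) and TONSL (0.49 ± 0.07), partners that read new H4, DNAJC9, a heat shock co-chaperone of H3-H4 (0.59 ± 0.09), and RBBP7, the close paralog of RBBP4 (0.33 ± 0.08). TONSL, RBBP7 and HIRA lay outside the naming rule and are named after their values were seen. HIRA, which sets down H3.3 outside replication, stood at 0.13 (adjusted p = 0.31), and IPO4, the importin of H3-H4, at -0.13 (adjusted p = 0.28).

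Of 13 chaperones of H2A-H2B or of histones in general, 3 rose and 0 fell (6 and 1 at an unadjusted p under 0.05), with a median of 0.14. They were ANP32E, which removes H2A.Z (0.47 ± 0.08), ANP32B (0.44 ± 0.07) and NAP1L1 (0.26 ± 0.06). VPS72, which sets H2A.Z in place, stood at -0.18 (adjusted p = 0.13). The FACT subunits SUPT16H and SSRP1, named here after their values were seen, stood at 0.23 (adjusted p = 0.067) and 0.20 (adjusted p = 0.092), and both were called higher with median-ratio scaling (0.25 and 0.22, adjusted p = 0.039 for each). Of 5 genes for CENP-A deposition at centromeres, 3 rose and 0 fell (5 and 0 at an unadjusted p under 0.05): OIP5 (0.42 ± 0.08), CENPA (0.39 ± 0.09) and its chaperone HJURP (0.32 ± 0.06).

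Of 16 other factors that process, export or degrade histone messages, 0 rose and 2 fell, at an unadjusted p under 0.05 too, with a median of 0.00. Of all genes 6.76% were called higher and 7.13% lower, and the counts of this short list were not tested against those shares. MIF4GD, which joins SLBP to the translation machinery, stood at 12.6, 9.25 and 10.5 FPKM in siNT and at 8.24, 6.67 and 7.42 FPKM in siE2F7 (-0.52 ± 0.08, SE; adjusted p = 0.0083). Its siE2F7 level was below the siNT level at each time. LSM10, of the U7 particle that recognises histone pre-mRNA, stood at 24.2, 19.2 and 27.3 FPKM in siNT and at 21.96, 11.4 and 17.3 FPKM in siE2F7 (-0.52 ± 0.12; adjusted p = 0.03, but 0.13 when 3 h was left out, 0.059 when 12 h was left out and 0.09 with no variance trend). LSM11, its partner in that particle, stood at 0.18 (adjusted p = 0.49), and ZNF473, a zinc finger protein of histone pre-mRNA processing, at 0.18 (adjusted p = 0.3).

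Of 8 regulators of histone gene transcription, 3 rose and 0 fell (4 and 0 at an unadjusted p under 0.05), and all 3 belong to the kinase that acts on NPAT: CCNE2 (1.55 ± 0.14), CCNE1 (1.05 ± 0.08) and CDK2 (0.36 ± 0.08). GON4L stood at -0.11 (adjusted p = 0.48). Of 12 partners of RBBP4 in its other complexes, 2 rose and 0 fell (7 and 0 at an unadjusted p under 0.05), with a median of 0.18. They were the Polycomb methyltransferase EZH2 (0.81 ± 0.12) and LIN52 of MuvB (0.38 ± 0.08), while SUZ12, a partner of EZH2, stood at -0.15 (adjusted p = 0.21). Among the genes of these lists that passed, the calls of CDK2, CENPA, HJURP, LIN52, NAP1L1, OIP5 and RBBP7 were each lost without the 3 h libraries (adjusted p from 0.064 for CDK2 to 0.12 for CENPA and RBBP7). All of these but OIP5 were also lost without the 12 h libraries (adjusted p from 0.058 for LIN52 to 0.2 for NAP1L1) and without the variance trend, and NAP1L1 without those of 0 h too (adjusted p = 0.11).

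**Figure D4:**
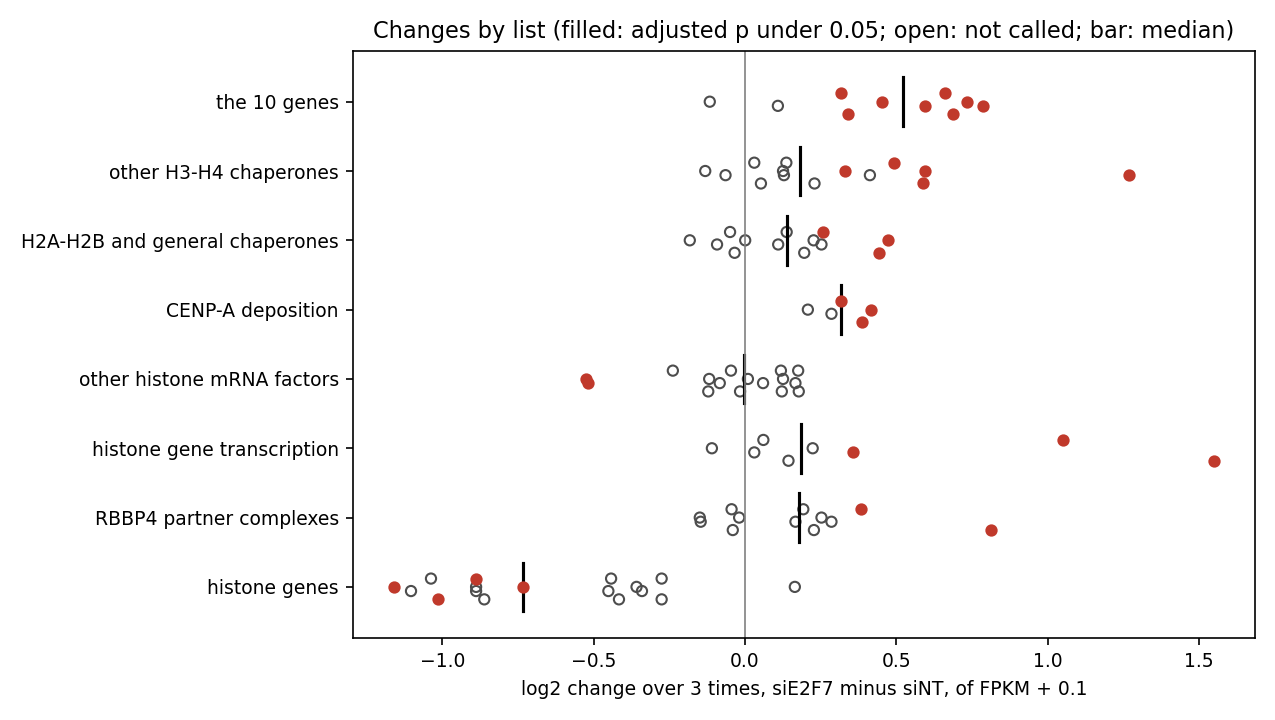
Log2 change over 3 times (x axis, siE2F7 minus siNT, on FPKM + 0.1) for every measured gene of each list (rows), with called genes filled, others open and a bar at the median. The 10 genes have a median of 0.52, the other histone mRNA factors one of 0.00 and the histone genes one of -0.73.

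The genes most like CAF-1 in level over the 6 libraries, by Pearson correlation of log2(FPKM + 0.1) with the mean profile of CHAF1A and CHAF1B, were FAF1 (0.998), ADIPOR1, RUSC1, OXCT1 and CNTNAP3 (0.993). Of the other 8 members the nearest were HAT1 (0.97), CASP8AP2 (0.969), RBBP4 (0.941) and SLBP (0.936), and ASF1A was at -0.681. Closest to SLBP were ORC6 (0.992), NAA50, CDC25A, MID1IP1 and SNRPA, and among members CHAF1A (0.969). Closest to NPAT were ARNTL2 (0.998), CHRFAM7A, DAB2IP, OSBPL6 and PLCB1. With 6 libraries that share their times and arms, among 11882 genes whose mean was 1 FPKM or more, these are descriptions only.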

How the data were processed

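Values are FPKM per gene, as deposited by the authors, 1 table per library. CASAVA 1.8 and hg19 (GRCh37) are named in the submitters' processing notes, and the columns are laid out as by Cuffdiff, per the file headers. How reads were aligned, annotated and filtered is not given in the sources used here. Tables were joined by identifier: 13161 genes were listed at any time and 11886 at all 3. Positions of genes are the loci given with their entries, and where a locus takes in a neighbour it may be wider than the gene. Start positions are counted from 1.

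The arms were compared with limma 3.58.1 (R 4.3.3), the time as a blocking factor, on log2(FPKM + 0.1), a variance trend and Benjamini-Hochberg adjustment at 0.05 over all 11886 genes. The fit had 2 residual and 5.4 prior degrees of freedom. The added 0.1 makes changes of low genes smaller than they were. Single times and differences across time were not tested. A test for counts was not run, since the tables hold none.

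The variance trend lets the expected spread depend on a gene's level. The members and lists were chosen with earlier results of these data known. Besides the members and E2F7, the naming rule takes the top 3 and bottom 3 changes of each list, of which the text gives some, and the 5 genes most like CAF-1, SLBP or NPAT. E2F8 (log2 change 1.63) and E2F1 (1.61), also in the rule, were both called higher. Promoters and transcripts were matched by symbol, and all 10 members had a RefSeq window. Alternatives were other pseudocounts, filters, scalings and fits, and leaving out each time.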

Additional observations from a re-analysis of the deposited data

Results flagged for a closer look

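Of the 10 genes, 2 had ratios between arms that pointed opposite ways at different times, each from 1 library against 1. For ASF1A the log2 ratio of siE2F7 to siNT was -0.279 at 0 h, -0.1 at 3 h and 0.032 at 12 h. For NPAT it was 0.268 at 0 h, 0.072 at 3 h and -0.013 at 12 h. The difference between times was not tested, since each arm had 1 library per time.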

How the results depend on the processing

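Of 8 members called, 8 were called with pseudocounts of 1 and 0.01, a mean of at least 1 FPKM, genes listed at 2 or more times, quantile normalization and median-ratio scaling. The count was 6 without the variance trend and 7 of the 8 members left without genes that share a locus. Leaving out the libraries of 0, 3 and 12 h gave 7, 4 and 6 members, and 1095, 763 and 1109 of all genes, against 1650. CHAF1A, CHAF1B, SLBP and RBBP4 were called in all 3 of these. Without the variance trend 852 genes passed. With no time block (no replicate block), where the difference between times joins the error, 32 genes and 0 members passed (limma; 6 members at an unadjusted p under 0.05). The log2 changes of the members kept their direction under the alternatives run. The 12 h ratio of NPAT was 0.035 with median-ratio scaling. With a pseudocount of 1, the single ratios of CASP8AP2, the lowest member, were 0.533, 0.435 and 0.517 at 0, 3 and 12 h. Depth is unknown, so counting error could not be given.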
